A study of Mus musculus with 14 samples.

Results

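The distal 5 Mb of the 19 mouse autosomes, the ends of the chromosomes that lie farthest from the centromere, were examined in the maps of meiotic DNA double-strand breaks (DSBs) of *Hells* CTRL and *Hells* cKO testes. A peak was counted as distal when the midpoint of its interval, its center, lay within 5 Mb of the last base of the chromosome in GRCm38. This rule uses positions alone and no measured strength. It took 378 of the 10397 autosomal peaks of the *Hells* CTRL list, which holds 11133 peaks in all, and 479 of the 16321 autosomal peaks of the *Hells* cKO list, which holds 17117. The distal windows hold 92.4 Mb of assembled sequence, 3.86% of the assembled autosomes, and the rest of the same autosomes holds 2304 Mb.

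The series has 14 samples, of which the 4 DMC1 ChIP-SSDS libraries were used and the 10 libraries of the 5hMeDIP experiment were not analysed here. DMC1 ChIP-SSDS recovers the single-strand DNA bound by DMC1, the strand exchange protein loaded on resected DSB ends, from whole testis of adult males. *Hells* CTRL mice had the genotype Hellsfl/Δ, were 5 weeks old and gave 2 testes per replicate. *Hells* cKO mice had the genotype Hellsfl/Δ;Stra8-iCre, were 9 weeks old and gave 3 testes per replicate. Both genotypes thus carry 1 deleted and 1 floxed *Hells* allele, and the controls lack only the transgene. The *Stra8* promoter drives Cre in male germ cells around the entry into meiosis, so only these cells should lose HELLS, although the study considers it possible that a part of the spermatocytes kept an undeleted allele. Age differed together with genotype, and the effects of age and genotype cannot be told apart. Each genotype had 2 replicates, which the authors merged into 1 list, so no spread between animals can be given and no test between genotypes was made. Intervals printed here are exact 95% intervals and cover counting error only. Peaks of 1 list are not replicates.

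In mice, meiotic DSBs are placed by PRDM9, whose zinc fingers bind a DNA motif and whose methyltransferase domain marks the adjacent nucleosomes. HELLS is a chromatin remodeler that works with PRDM9, and when PRDM9 is missing the breaks are known to form at other open chromatin, mainly at promoters. Mouse autosomes have their centromere at one end, so each has 1 long arm and 1 distal end of this kind. Distal ends are known for their high gene density and for frequent crossovers in the male.

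Sequences at distal centers are printed as examples, each set chosen and marked by its own rule, so they do not compare the lists. The following 60-bp stretches were read from GRCm38 around distal *Hells* CTRL peaks. Capitals mark words of 8 bases, the 20 that were most enriched at the centers of *Hells* CTRL peaks outside the distal windows. The peaks belong to the strongest of the distal windows that hold such a word within 100 bp of the center.
chr4:151969670-151969729, minus strand, in *Dnajc11*, strength 943: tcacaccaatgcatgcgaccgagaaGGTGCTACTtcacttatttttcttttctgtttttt
chr2:179250694-179250753, minus strand, intergenic, strength 462: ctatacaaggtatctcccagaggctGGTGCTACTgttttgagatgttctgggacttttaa
chr19:61153473-61153532, plus strand, intergenic, strength 698: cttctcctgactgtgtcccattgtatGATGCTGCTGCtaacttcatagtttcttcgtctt
chr10:130543582-130543641, plus strand, in an intron of the lincRNA gene *Gm31793*, strength 389: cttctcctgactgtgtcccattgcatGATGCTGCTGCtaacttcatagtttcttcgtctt
The stretches of chromosomes 4 and 2 share the word GGTGCTAC, the most enriched of the 20, within otherwise different sequence. Those of chromosomes 19 and 10 were identical at 59 of 60 bases, and both peaks lay within the last Mb of their chromosome.

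Stretches at distal *Hells* cKO centers were chosen by another rule. The next 60-bp stretches are centered on distal *Hells* cKO peaks and are given on the plus strand, with CpG dinucleotides in capitals. The first 2 are the strongest intronic ones within 1 kb of a start site, and the others are 2 of the strongest of all distal *Hells* cKO peaks.
chr19:56821788-56821847, near the start of *Ccdc186*, strength 212: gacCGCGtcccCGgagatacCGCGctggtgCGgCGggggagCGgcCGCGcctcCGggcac
chr7:140787627-140787686, near the start of *Syce1*, strength 202: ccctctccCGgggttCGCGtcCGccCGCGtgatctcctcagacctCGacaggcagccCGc
chr9:123927615-123927674, intergenic, strength 415: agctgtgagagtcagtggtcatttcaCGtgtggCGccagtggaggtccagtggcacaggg
chr9:124255092-124255151, intergenic, strength 343: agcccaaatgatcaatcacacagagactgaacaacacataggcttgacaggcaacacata
The stretches at gene starts held 11 and 8 CpG dinucleotides, whereas the intergenic ones of chromosome 9 held 2 and 0.

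Distal windows held fewer *Hells* cKO peaks than the rest of the autosomes, whereas the *Hells* CTRL density was closer to that of the rest. The density of *Hells* cKO peaks was 5.18 per assembled Mb (4.73 to 5.67) in the distal windows and 6.88 (6.77 to 6.99) in the rest, a ratio of 0.754 (0.687 to 0.826). The density of *Hells* CTRL peaks was 4.09 per Mb (3.69 to 4.53) against 4.35 (4.26 to 4.44), a ratio of 0.941 (0.847 to 1.04), whose interval includes 1. There were 1.27 *Hells* cKO peaks for each *Hells* CTRL peak in the distal windows and 1.58 in the rest. At the other end of the same chromosomes, in the first 10 Mb beside the centromere, the densities were 4.78 per Mb for *Hells* CTRL and 6.85 for *Hells* cKO. The distal density of *Hells* cKO was 0.757 times that proximal density (0.676 to 0.847).

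Base composition and gene density also differed with position, and their part in the peak densities was not tested beyond the classes given here. GC content was 43.8% in the distal 500-kb bins and 41.9% in the rest, and the distal bins had 12.1 protein-coding genes per Mb against 8.55. Across the genome the *Hells* cKO density was higher in bins with more GC. When distal bins were set against other bins of the same GC class, with 5 classes of equal size, the ratio of observed to expected *Hells* cKO peaks was 0.646 (0.589 to 0.706), and with classes of gene starts per bin it was 0.671 (0.612 to 0.733). The *Hells* cKO ratio was below 1 in each of the 5 GC classes, from 0.462 to 0.722, and the interval lay below 1 in each. For *Hells* CTRL the weighted ratio was 0.898 (0.810 to 0.994) by GC class and 0.925 (0.834 to 1.02) by gene starts.

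The lower *Hells* cKO density was found in the outer part of the window. From the end inwards, the 5 successive Mb held 86, 60, 72, 109 and 152 *Hells* cKO peaks and 48, 76, 80, 85 and 89 *Hells* CTRL peaks. The *Hells* cKO density was 3.99 per Mb in the outer 3 Mb and 6.91 in the inner 2 Mb of the window, and it was 9.80 from 5 to 10 Mb from the end, above the rest of the autosomes. The *Hells* CTRL density was 3.73, 4.61 and 5.53 per Mb in the same zones. With a window of 10 Mb the distal *Hells* cKO ratio was therefore above 1, at 1.11 (1.05 to 1.18), and with a window of 2 Mb it was 0.598 (0.504 to 0.703). The corresponding *Hells* CTRL ratios were 1.12 (1.05 to 1.20) and 0.799 (0.664 to 0.954). The *Hells* cKO peaks just inside the 5-Mb limit had strengths of 30, 13 and 15, and those just outside had 44, 16 and 62. The *Hells* CTRL peaks nearest to the limit had 25, 61 and 175 inside it and 235, 37 and 69 outside.

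**Figure D1:**
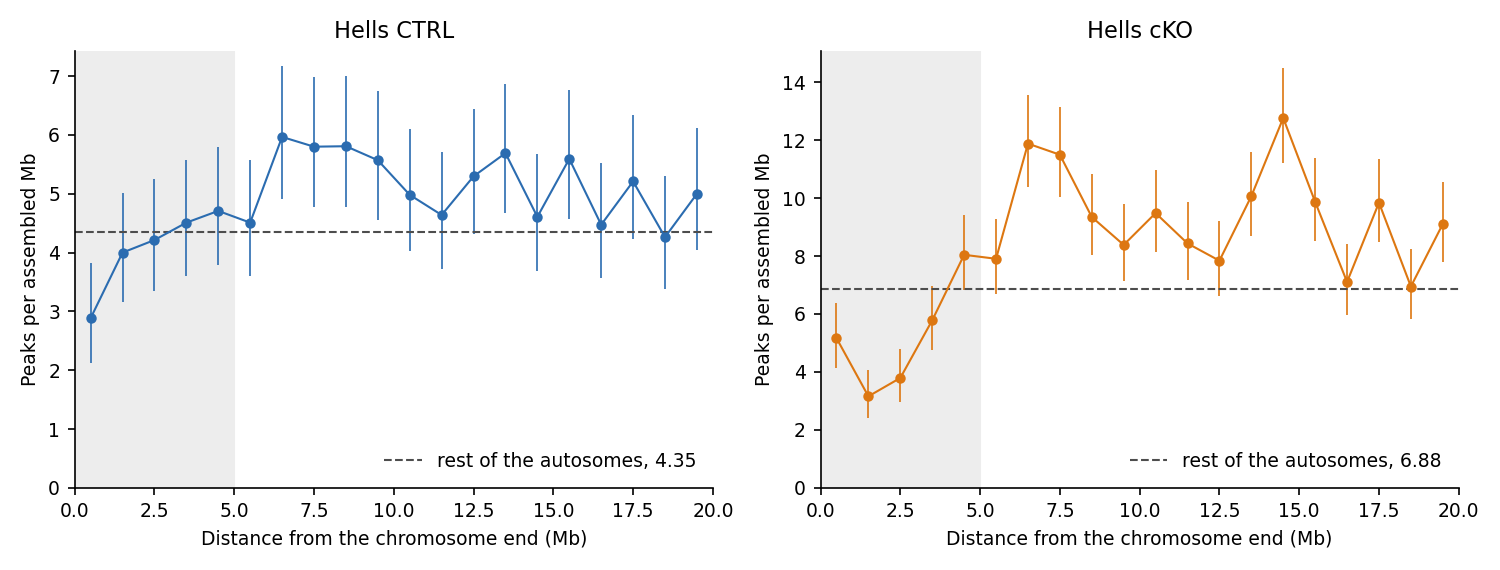
Peak density (peaks per assembled Mb) in 1-Mb steps from the chromosome end, summed over the 19 autosomes, with exact 95% Poisson intervals as bars. The grey area is the distal 5 Mb and the dashed line is the density of the rest of the autosomes (4.35 for *Hells* CTRL and 6.88 for *Hells* cKO), and the 3 outermost points lie below it in both panels. The outermost *Hells* cKO point (5.17) is above the next (3.16).

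Distal densities were spread over a wider range of values among the autosomes in *Hells* cKO than in *Hells* CTRL. Distal *Hells* CTRL counts ranged from 10 to 33 per autosome, and the ratio of distal density to that of the rest ranged from 0.412 on chromosome 18 to 1.496 on chromosome 14. It was below 1 on 12 autosomes, with an interval below 1 on 3 of them (chromosomes 12, 17 and 18), and no interval lay above 1. Distal *Hells* cKO counts ranged from 3 to 60, and the ratio from 0.0732 on chromosome 17 to 2.04 on chromosome 4. It was below 1 on 14 autosomes, with an interval below 1 on 7, and it was above 1 on 5, with an interval above 1 on 3 (chromosomes 4, 9 and 15).

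Chromosomes 3, 17 and 18 had 3 distal *Hells* cKO peaks each, against 36 *Hells* CTRL peaks on the 3 together, and their distal windows hold 26 protein-coding genes. Without these 3 autosomes, a choice made after the counts were seen, the *Hells* cKO ratio was 0.896 (0.816 to 0.983). Chromosomes 4, 15 and 9 had 60, 54 and 43, which makes 32.8% of all distal *Hells* cKO peaks, and hold 302 distal protein-coding genes. Over the 19 autosomes, Spearman's rho between the distal density and the protein-coding genes per Mb of the distal window was 0.780 for *Hells* cKO and 0.402 for *Hells* CTRL. The rho between the ratios of both lists was 0.382. These values describe 19 points that share libraries, base composition and the gene annotation.

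**Figure D2:**
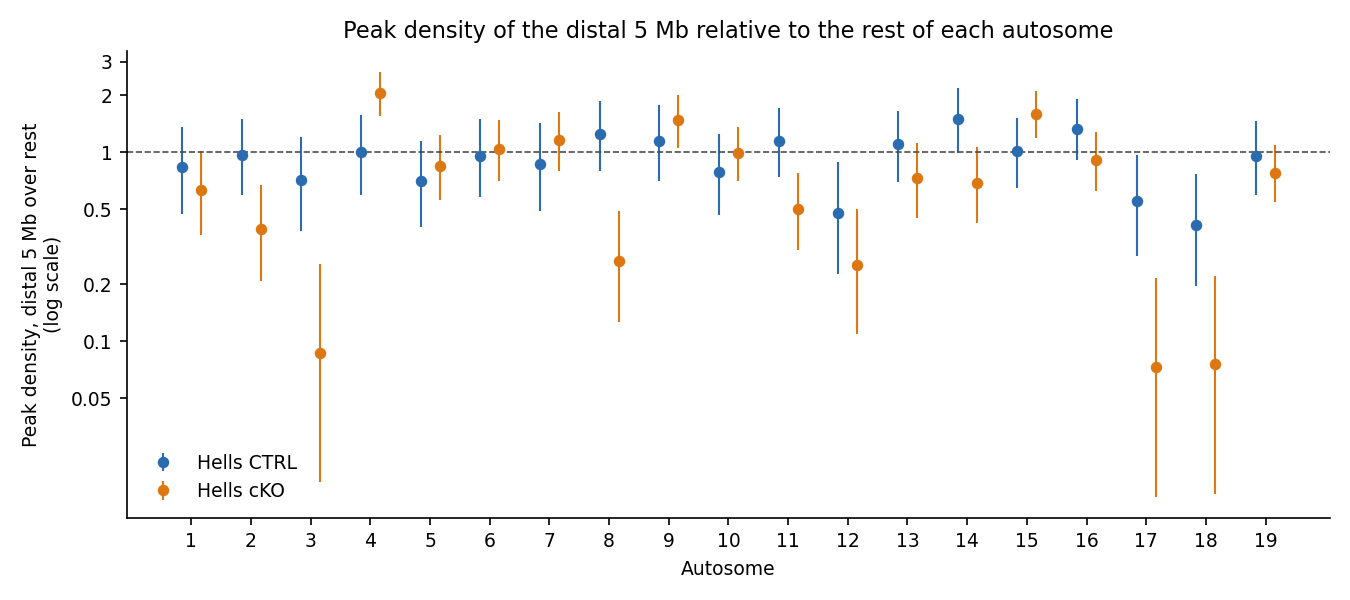
Ratio of the peak density in the distal 5 Mb to that in the rest of the same autosome, on a log scale, with *Hells* CTRL in blue, *Hells* cKO in orange and exact 95% intervals. The *Hells* cKO points spread from 0.0732 to 2.04 and the *Hells* CTRL points from 0.412 to 1.496, and the dashed line marks equal density.

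When each autosome was divided into tiles of 5 Mb, counted from its distal end, the distal tile had a *Hells* cKO density below the median of the other tiles on 14 of 19 autosomes and a *Hells* CTRL density below it on 10. It was the least dense tile on 3 autosomes in *Hells* cKO and on 1 in *Hells* CTRL, and in neither list was it the densest of an autosome. The GC content of the distal tile was higher than the median of the other tiles on 14 of 19 autosomes.

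The last Mb fell into separate patterns. Chromosomes 4, 9 and 13 had 35, 21 and 11 *Hells* cKO peaks there, 67 of the 86, a density of 28.6 per assembled Mb. The other 16 autosomes had 19, a density of 1.33 per Mb, and 11 autosomes had none. *Hells* CTRL peaks were spread over 15 autosomes, with a density of 6.40 per Mb on chromosomes 4, 9 and 13 and 2.31 on the others. The median strength of the *Hells* cKO peaks in the last Mb was 79 on the 3 autosomes and 15 on the others. These 3 autosomes were singled out after their counts were seen. The last Mb held 746857 to 800000 assembled bases on them, against 849800 to 900000 on the others. Of the 67 peaks, 4 had a tandem repeat within 1 kb of the center, and 1 of the 19 on the other autosomes did. Outside the distal windows 0.656% of the *Hells* cKO peaks did, a lower share. The part of these gaps and repeats in the counts was not tested. Without these 3 autosomes the distal *Hells* cKO density ratio was 0.647 (0.581 to 0.719) and the *Hells* CTRL ratio was 0.915 (0.815 to 1.02).

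**Figure D3:**
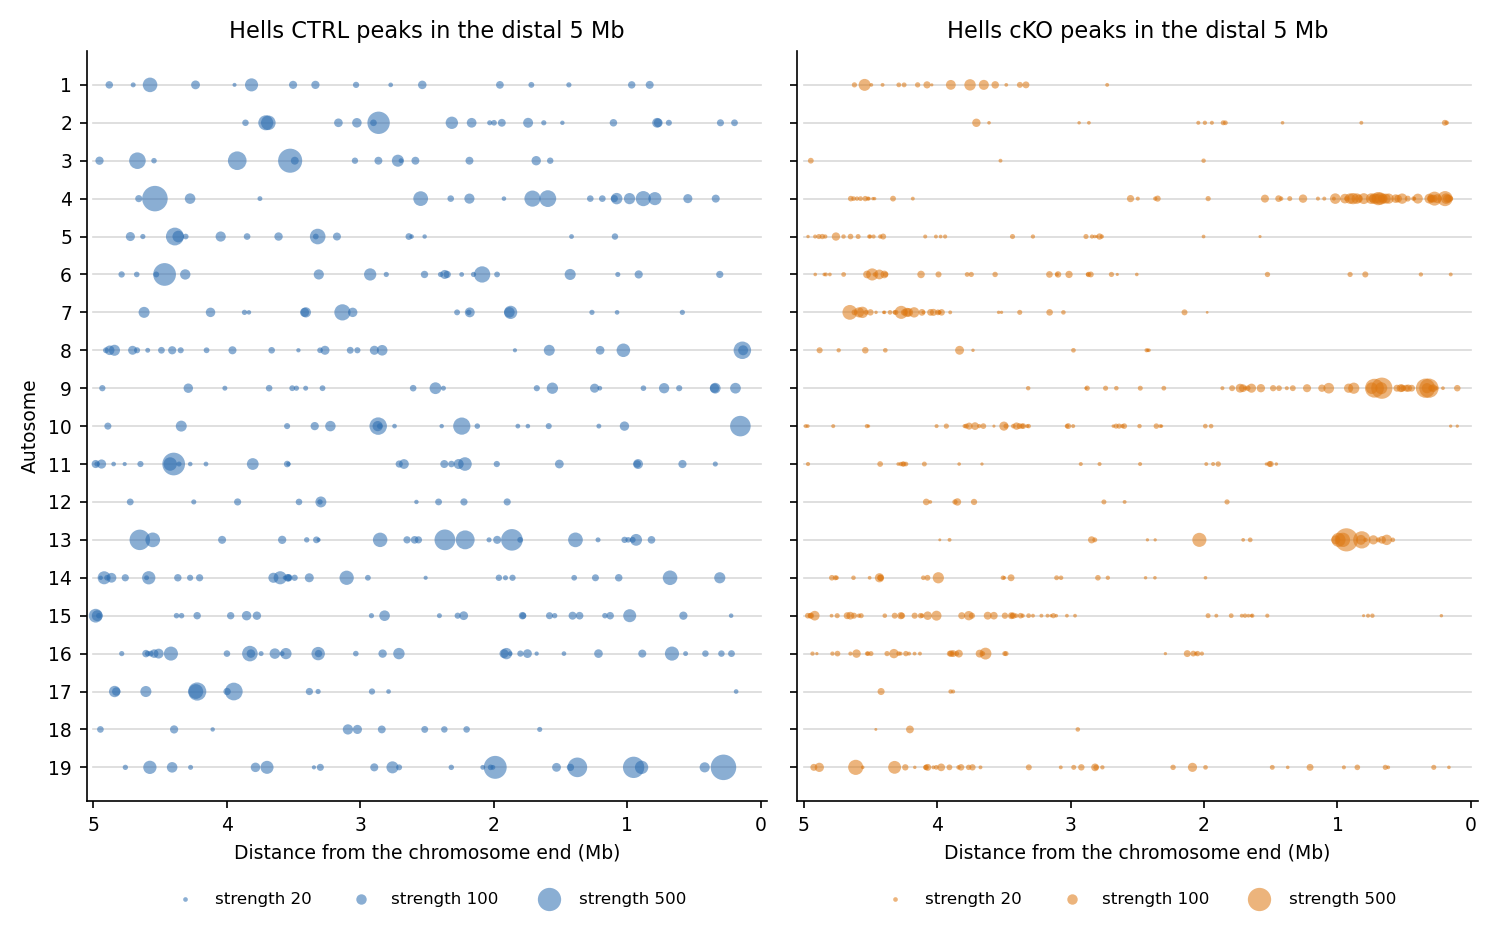
Positions of the 378 *Hells* CTRL (blue) and 479 *Hells* cKO (orange) distal peaks along the last 5 Mb of each autosome, by distance from the chromosome end in Mb, with the area of a point proportional to the deposited strength between 5 and 600. The *Hells* cKO peaks of the last Mb gather on chromosomes 4, 9 and 13, and chromosomes 3, 17 and 18 have 3 *Hells* cKO peaks each.

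Over the 5-Mb window the median distal peak was weaker than the median of the other peaks of its own list. The strength deposited for a peak is a background-corrected score of DMC1-bound fragments. It serves here only within a list, except where common peaks are grouped by the ratio of their strengths in both lists. The median strength of distal *Hells* CTRL peaks was 51 (46 to 58) against 63 (62 to 65) in the rest, and the mean was 85.5 against 134. The strongest distal peak had 943, whereas the strongest elsewhere on the autosomes had 5547. The corresponding *Hells* cKO medians were 24 (22 to 26) and 31 (30 to 31), and the highest strengths were 495 and 3299. Pooled over all autosomes, the *Hells* cKO difference was not found in the outermost part. With a window of 2 Mb the ratio of the distal *Hells* cKO median to that of the rest was 1.08 (0.833 to 1.67). In the last Mb the median *Hells* cKO strength was 55, with 79 on chromosomes 4, 9 and 13 and 15 on the others. The median was lower in the distal window on 15 of 19 autosomes in each list, and on 13 of them in both. Beside the centromere, in the first 10 Mb, the medians were 59 (*Hells* CTRL) and 37 (*Hells* cKO).

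The shortfall was in the strong classes. The autosomal peaks of each list were divided by strength into 10 classes of about equal size, and the strongest class began at 315 (*Hells* CTRL) and 118 (*Hells* cKO). It held 15 distal *Hells* CTRL peaks, 3.97% of the 378 (2.24 to 6.46), and 24 distal *Hells* cKO peaks, 5.01% of the 479 (3.24 to 7.36). None of the 104 strongest *Hells* CTRL peaks, 1% of the list, was distal. Of the 168 strongest *Hells* cKO peaks 6 were, a share not below the 2.93% that distal peaks make of that list. These 6 had strengths of 275 to 495 and lay in the last Mb of chromosomes 9 and 13. Together the distal peaks made up 3.64% of the autosomal *Hells* CTRL peaks and 2.35% of their summed strength, and 2.93% and 2.31% in *Hells* cKO.

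**Figure D4:**
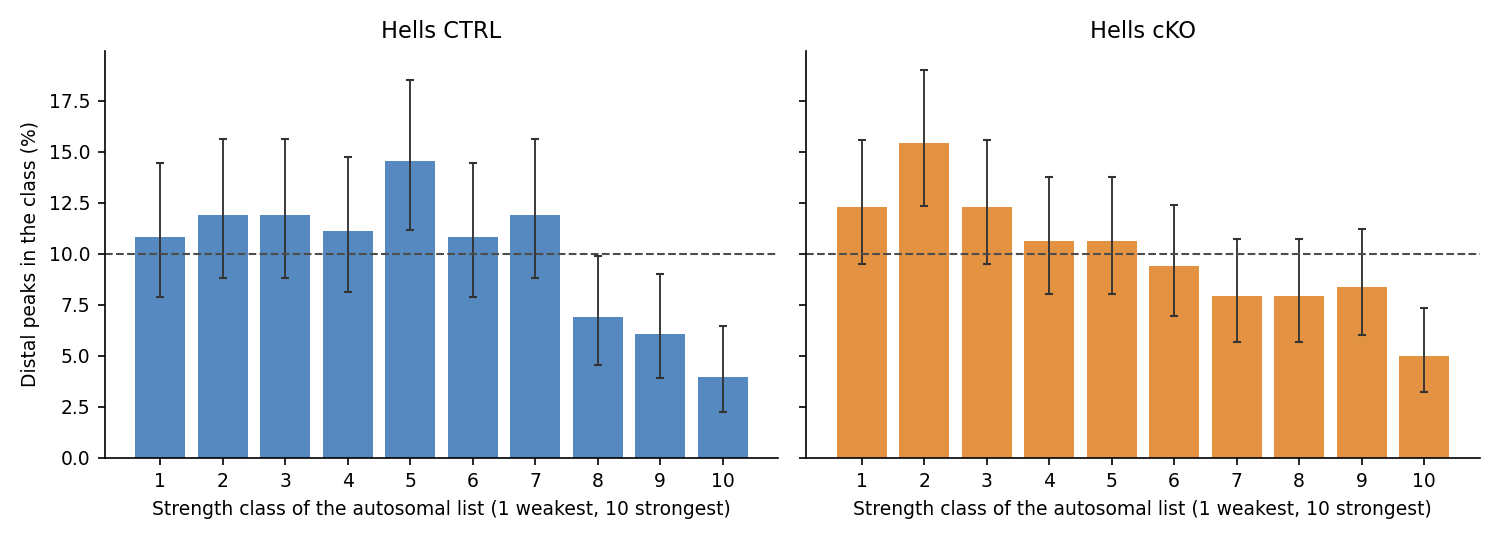
Share of distal peaks (%) in each of 10 strength classes of the autosomal list, from the weakest (1) to the strongest (10), with exact 95% intervals. The dashed line at 10% is the share each class would have if distal peaks were like the list, and the strongest class holds 3.97% of distal *Hells* CTRL peaks and 5.01% of distal *Hells* cKO peaks.

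Pooled over the autosomes, the lower *Hells* cKO strength was seen at gene starts. Distal *Hells* cKO peaks within 1 kb of a start site had a median strength of 27.5 (24 to 31) against 42 in the rest, a ratio of 0.655. Those farther from a start site had 20 (17 to 23) against 21, a ratio of 0.952, and the interval of the distal median includes the value of the rest. Both groups include peaks of the last Mb of chromosomes 4, 9 and 13, where 39 of 67 *Hells* cKO peaks had a start site within 1 kb. The median strength of these 67 peaks was 79, and their part in the contrast was not tested. In *Hells* CTRL the ratios were 0.741 near a start site and 0.797 elsewhere. The *Hells* cKO density ratio was 0.802 (0.714 to 0.898) for peaks near a start site and 0.678 (0.578 to 0.791) for the others.

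The strongest distal *Hells* CTRL peaks mostly lay between genes or in introns. The first, with a strength of 943, was on chromosome 4, 131 bp from a start site of *Dnajc11*, which encodes a mitochondrial protein of the DnaJ family, at chr4:151968648-151970583. It was followed by intergenic peaks of chromosome 19 (698) and chromosome 3 (535). Next came a peak of 485 in an intron of *Emx2os*, the antisense gene beside the homeobox gene *Emx2*, and a peak of 476 in an intron of *Tnrc6c*, a gene of microRNA-guided silencing. The strongest distal peak of other autosomes lay in introns of *Pan3* (293), a subunit of a deadenylase, *Rps6kc1* (196), *Fgf14* (196), whose product acts on sodium channels, and *Ptprn2* (111). It lay in the UTR of *Ttc3* (223), 209 bp from its start site. On chromosome 8 it lay in the lincRNA gene *Gm32856* (282), on chromosome 13 in the lincRNA gene *1700003P14Rik* (429), and on chromosome 9 in an intron of *Snrk*, a kinase gene (128). Intergenic peaks led chromosomes 2, 6, 7 and 15, with 462, 476, 243 and 175. Chromosome 18 had the weakest leading peak, an intergenic one of 97. Of the 10 strongest distal peaks, 8 had a *Hells* cKO partner, a peak of the other list whose center was under 400 bp away. In the strongest of 10 strength classes of the list, 10 of the 15 distal peaks had one, 66.7% (38.4 to 88.2), against 61.0% in the rest.

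The strongest distal *Hells* cKO peaks were of 2 kinds. Of the 10 strongest, 8 lay in the last Mb, all on chromosomes 4, 9 and 13, where the last Mb of all autosomes held 86 of the 479 distal *Hells* cKO peaks. In *Hells* CTRL 2 of the 10 strongest lay in the last Mb, which held 48 of the 378 distal peaks. The strongest *Hells* cKO peak was at chr13:119487377-119490578, 117 bp from a start site of *Tmem267* (495). Others of chromosome 13 lay in a *Tmem267* intron (275) and at *4833420G17Rik* (189). Those of chromosome 9 were intergenic (415, 343 and 329) or in the lincRNA gene *Gm39469* (344), and they had between 0 and 13 CpG dinucleotides within 250 bp of their centers. The peak of 210 on chromosome 4 was intergenic with 5 CpG dinucleotides.

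On the other 16 autosomes the leading *Hells* cKO peak lay within 1 kb of a start site, and 14 of these peaks had 20 or more CpG dinucleotides within 250 bp. The peak of chromosome 16 lay 138 bp from a start site of *Dyrk1a*, a protein kinase gene (strength 130, 92 CpG dinucleotides), and that of chromosome 14 lay 145 bp from *Ipo5*, which encodes a nuclear import receptor (116, 79 CpG). Genes of meiotic chromosome structure were among them: *Syce1*, for a central element protein of the synaptonemal complex, led chromosome 7 with a strength of 202 at 181 bp, and *Sycp2*, for an axial element protein, led chromosome 2 with 65 at 93 bp. Further leading peaks were at the starts of *Ccdc186* (212), *Angel2* (132), *Dip2b* (92), *Dtx3* (77), *Sipa1l2* (73), *Lnx2* (64), *Neto1* (56), *Esyt2* (51), *Gm3807* (35) and *Fpgt* (31). The peaks nearest to an end were 0.102 Mb from it in *Hells* cKO, at *Gm21836* on chromosome 9 (39), and 0.131 Mb in *Hells* CTRL, in *Gm32856* on chromosome 8 (91).

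Distal *Hells* cKO peaks lay mostly at start sites and distal *Hells* CTRL peaks mostly away from them. Of the 479 distal *Hells* cKO peaks, 312 had a start site within 1 kb, 65.1% (60.7 to 69.4), against 61.2% in the rest and 61.4% of all autosomal peaks. For start sites of protein-coding genes the *Hells* cKO share was 59.3% (54.7 to 63.7), against 54.2% in the rest. Of the 378 distal *Hells* CTRL peaks 35 did, 9.26% (6.53 to 12.6), against 7.04% in the rest and 7.12% of all. Distal centers held on average 31.9 CpG dinucleotides within 250 bp in *Hells* cKO (SD 20.8, n = 479 peaks), and 30.2 in the rest. In *Hells* CTRL the mean was 5.58 (SD 5.59, n = 378 peaks), with an approximate 95% interval of 5.02 to 6.14 over peaks, against 4.71 in the rest. Introns held 52.4% of distal *Hells* CTRL centers and 34.4% of distal *Hells* cKO centers, and coding exons held 2.65% and 11.7%. Intergenic centers made up 39.4% and 30.1%.

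The sequence words of *Hells* CTRL were about as frequent at the distal ends as elsewhere. At least 1 of the 20 words lay within 100 bp of the center in 135 of 378 distal *Hells* CTRL peaks, 35.7% (30.9 to 40.8), where 36.7% did in the rest and 36.6% of all autosomal peaks. In windows 1000 bp from the distal centers the share was 6.48%. Of the 20 words, searched on both strands, 19 were at more distal centers than in those windows, and GGTGTTAC was at 0. The words overlap one another in sequence, so their counts are not independent. GGTGCTAC was at 19 distal centers against a mean of 1 in the windows, and GATGCTAC at 12 against 1.5. In *Hells* cKO 14.4% of distal peaks held a word, 14.0% of those in the rest and 14.0% of all. A tandem repeat lay near 5 distal *Hells* CTRL peaks, 1.32% (0.431 to 3.06), against 0.798% in the rest, and near 10 distal *Hells* cKO peaks, 2.09% (1.01 to 3.81), against 0.656%.

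Seen from the genes, fewer distal promoters had a *Hells* cKO peak. Of 1122 distal protein-coding genes, 313 had a *Hells* cKO peak within 1 kb of a start site, 27.9% (25.3 to 30.6). In the rest 9165 of 19685 genes did, 46.6%, and over all autosomes the share was 45.6%. In the first 10 Mb beside the centromere it was 50.4%. The distal share was lower than that of the rest on 18 of 19 autosomes. *Hells* CTRL peaks lay at the start of 23 distal genes, 2.05% (1.30 to 3.06), against 2.30% in the rest and 2.28% over all autosomes. Without chromosomes 4, 9 and 13 the distal *Hells* CTRL share was 1.29% (0.671 to 2.25).

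CpG-rich promoters were about as frequent among distal genes as elsewhere, and fewer of them had a *Hells* cKO peak. Genes with 20 or more CpG dinucleotides within 250 bp of their start, a class added after the values were seen, were 56.3% of distal and 54.8% of other genes. Of the 632 in the distal windows 268 had a *Hells* cKO peak, 42.4% (38.5 to 46.4), whereas 7661 of 10786 did in the rest, 71.0% (70.2 to 71.9), and 69.4% over all autosomes. A *Hells* CTRL peak lay at 17 of the 632, 2.69% (1.57 to 4.27), against 2.99% in the rest and 2.98% over all autosomes. The share was lower in the distal window on 18 of 19 autosomes, the exception being chromosome 13 with 13 of 17. It was 14.9% on chromosome 2, where 7 of 47 had a peak, and 21.5% on chromosome 11, where 17 of 79 did. In the outer 3 Mb it was 33.3% (28.7 to 38.3), from 3 to 5 Mb 57.0% (50.5 to 63.3), from 5 to 10 Mb 65.4% (61.2 to 69.5), and from 10 to 20 Mb 71.4%.

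**Figure D5:**
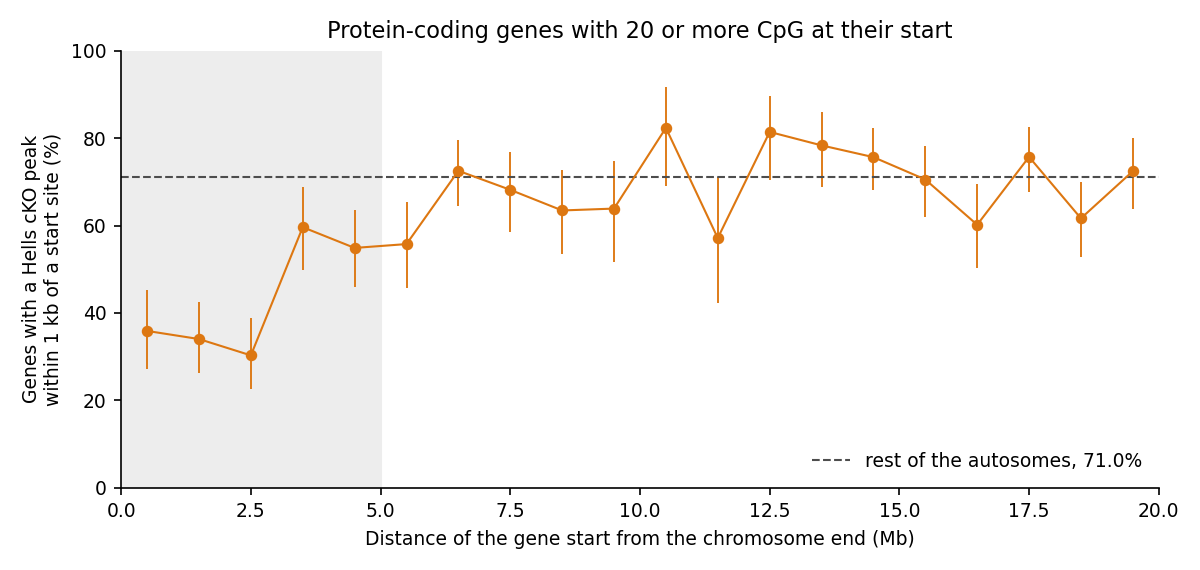
Share (%) of protein-coding genes with 20 or more CpG dinucleotides at their start that had a *Hells* cKO peak within 1 kb of a start site, in 1-Mb steps from the chromosome end over the 19 autosomes, with exact 95% intervals. The 3 outermost steps lie between 30.3% and 35.9%, and the dashed line is the rest of the autosomes (71.0%).

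In the last Mb the genes with a *Hells* cKO peak lay mainly on chromosomes 4, 9 and 13. These 3 autosomes were chosen for their *Hells* cKO peaks in the last Mb, so the counts describe the same peaks and are not a second observation. On chromosomes 4, 9 and 13, 34 of 38 CpG-rich genes had a *Hells* cKO peak, 89.5%, of which 22 of 25 were on chromosome 4. On the other autosomes 8 of 79 did, 10.1%, with 0 of 19 on chromosome 2 and 0 of 13 on chromosome 11. Over the whole distal window without chromosomes 4, 9 and 13 the share was 37.2% (33.0 to 41.6), against 71.5% in the rest of the same 16 autosomes. The *Hells* CTRL share there was 7 of 513 genes, 1.36% (0.5503 to 2.79), against 2.95%.

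Distal CpG-rich genes without a *Hells* cKO peak included some of wide expression, chosen here after their values were seen. The nearest *Hells* cKO peak was 158 kb from *Actg1*, the gene of cytoplasmic gamma-actin with 75 CpG dinucleotides at its start, and 184 kb from *Fasn*, fatty acid synthase, with 62. It was 522 kb from *Tex19.1*, a gene of the male germ line, and 27.5 kb from *Rtel1*, a helicase gene. The 9 distal genes of the *Hoxc* cluster on chromosome 15, developmental regulators that include 8 CpG-rich ones, had none, and their nearest *Hells* cKO peak was at 205 to 318 kb. No share of Hox genes outside the distal windows was computed to set beside this.

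Most gene families had a lower share of members with a *Hells* cKO peak at the distal ends, in small numbers. Among zinc finger genes named Zfp, which are mostly transcription factors, it was 5 of 15 distal genes (33.3%) against 241 of 373 (64.6%), the 5 being *Zfp105*, *Zfp131*, *Zfp386*, *Zfp445* and *Zfp941*. Among ribosomal protein genes, those of mitochondrial ribosomes included, it was 6 of 14 (42.9%) against 118 of 160 (73.8%), among them *Rpl22*, *Rplp2* and *Rps21*. For solute carriers it was 8 of 22 (36.4%) against 44.6%, and for Tmem genes 5 of 11 (45.5%) against 54.9%. Proteasome genes had 1 of 3 (*Psmd13*) against 36 of 46, and ubiquitin-specific proteases 0 of 2 against 35 of 49. Genes named Rab and a digit, not all of them Rab GTPases, had 1 of 3 (*Rab11fip2*) against 42 of 62. Potassium channel genes had 0 of 9 against 14 of 83, and the Tnfrsf genes of cytokine receptors 0 of 7 against 4 of 13. Genes named Gpr or Adgr, only a part of those for G protein-coupled receptors, had 0 of 5 against 30 of 92. The odorant and pheromone receptor genes had hardly any in either place, with 1 of 76 distal genes and 12 of 1396 others, and keratin genes had 0 of 31 and 3 of 82. Without these last families the share of all distal genes was 30.7%, against 50.3% in the rest. The interval of the distal share included the value of the rest in each of these families except the zinc finger genes (11.8 to 61.6%) and the ribosomal protein genes (17.7 to 71.1%).

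Of the distal peaks common to both lists, a larger share than over all autosomes was stronger in *Hells* cKO. In each list 21 distal peaks had a partner, 5.56% of the distal *Hells* CTRL peaks (3.47 to 8.37) against 8.55% in the rest and 8.44% over all autosomes. In *Hells* cKO it was 4.38% (2.73 to 6.62), against 5.41% in the rest and 5.38% over all. With a window of 2 Mb the shares were above those of the rest, at 11.3% (6.31 to 18.2) for *Hells* CTRL and 9.59% (5.34 to 15.6) for *Hells* cKO. In the last Mb, 8 of 15 *Hells* CTRL peaks on chromosomes 4, 9 and 13 had a partner, and 4 of 33 on the others. For *Hells* cKO it was 8 of 67 and 4 of 19. The 21 common peaks were grouped by log2 of the *Hells* CTRL strength divided by the *Hells* cKO strength. Of the 21, 11 were above 1 and 2 were between 1 and -1. The other 8, 38.1% (18.1 to 61.6), were under -1. Over all autosomes 86.7% of the common peaks were above 1, 6.04% were between and 7.29% were under -1. The 2 lists were not normalized to each other, so the ratio orders the peaks and does not measure a change.

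The 11 common peaks that were stronger in *Hells* CTRL had strengths of 112 to 943, and their partners of 10 to 31, and lay on 8 autosomes, with 4 on chromosome 19. The 8 that were stronger in *Hells* cKO had 116 to 495, and their *Hells* CTRL partners 24 to 129. All 8 were on chromosomes 9 and 13, with 3 and 5, and 7 of them were in the last Mb. They include the peak at *Tmem267*, which had 495 and 129, a log2 ratio of -1.94, and the one at *4833420G17Rik*, with 189 and 33 and a ratio of -2.52. With thresholds of 2 and -2, 4 of these 8 stayed in their group. The 2 similar ones were at *C1qtnf12* on chromosome 4, with 76 (*Hells* CTRL) and 54 (*Hells* cKO), and between genes on chromosome 2, with 42 and 32. Without chromosomes 4, 9 and 13 the share of distal *Hells* CTRL peaks with a partner was 3.18% (1.54 to 5.78).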

How the data were processed

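Peak lists of DMC1 ChIP-SSDS from whole testis were analysed, 1 for *Hells* CTRL and 1 for *Hells* cKO, each from 2 replicates. The authors mapped trimmed reads to GRCm38/mm10, kept non-duplicated, uniquely mapped reads, called peaks with MACS and chose the final ones among the peaks of pooled reads by IDR. Reads from copies that cannot be placed uniquely are thus missing. The submitters' processing notes also name CASAVA, Trimmomatic, Bowtie2, BWA and MACS2. The strength of a peak is a score that the authors made from the fragment count at the re-centered peak, corrected for local background and, per their methods, scaled to library size. It was deposited in whole numbers, the reads behind it are unknown, and the authors did not normalize one genotype to the other.

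Centers, densities per assembled (non-N) Mb, distances and shares were computed from the 2 lists and GRCm38.p6. Start sites and genes came from GENCODE M21 (all transcripts, reach of 1 kb). Peaks were common when their centers were under 400 bp apart. Words of 8 bases were ranked on *Hells* CTRL autosomal peaks outside the distal windows, by centers with the word within 100 bp over windows 1000 bp away, among words at 100 or more centers. Tandem repeats were stretches of 500 bp within 1 kb of the center that matched themselves at 0.7 or more of their bases when shifted by 10 to 400 bp. Ratios of densities have exact conditional, shares Clopper-Pearson, counts exact Poisson and medians order-statistic 95% intervals, all for counting error only. No test was made.

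The named peaks were the strongest distal peak of each autosome, the 10 strongest of each list, the peak nearest to an end and the 5 strongest of each of 3 groups of common peaks. Gene families were taken by symbol. A printed sequence shows the center of a *Hells* cKO peak or the word nearest to the center of a *Hells* CTRL peak, and none was printed from a UTR. Some of the named peaks are not reported here. Members, lists and rules were chosen with earlier results of these data known. The alternatives were other windows, denominators, strengths, reaches, words and autosomes. The code was tested on simulated lists. Scripts ran in Python 3.11.15 with pandas 2.3.3, scipy 1.17.1, numpy 2.4.6 and, for plots, matplotlib 3.10.9.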

Additional observations from a re-analysis of the deposited data

How the results depend on the processing

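No paired analysis was possible because the 2 replicates of each genotype were merged into 1 list before deposit, and for the same reason no replicate could be left out. A value is given here where it lay outside the interval of the reported one. The reported *Hells* cKO density ratio (0.754) and strength ratio (0.774) both passed 1 with another window. With 10 Mb the density ratio was 1.11. With 2 Mb the strength ratio was 1.08, with an interval that includes 1, so a reversal in strength is not shown. With 2 Mb the density ratios were 0.799 for *Hells* CTRL and 0.598 for *Hells* cKO, 13.7% of *Hells* CTRL peaks lay near a start site, 11.3% and 9.59% of the peaks of the lists had a partner, and 20.5% of genes had a *Hells* cKO peak. With 10 Mb the *Hells* CTRL density ratio was 1.12, 54.2% of *Hells* cKO peaks lay near a start site, 36.0% of genes had such a peak and the mean CpG count was 29.4. With peaks at or above the median strength of their list the density ratios were 0.748 and 0.583, and 77.6% of *Hells* cKO peaks lay near a start site. The shares with a partner were then 3.29% and 2.60%. Here the partner also had to be at or above the median of its own list, so strong peaks with a weak partner were not counted. Weighting by GC class or by gene starts gave 0.646 and 0.671 for the *Hells* cKO density. The strength ratio was 0.638 by means in *Hells* CTRL. In *Hells* cKO it was 0.679 as the median over autosomes, 0.846 by mean percentiles, 0.655 near start sites and 0.952 away from them.

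Measures that are narrower or wider by construction gave other levels. A reach of 500 bp gave 5.56% of *Hells* CTRL and 58.9% of *Hells* cKO peaks near a start site, and 24.8% of genes with a *Hells* cKO peak. Start sites of protein-coding genes alone gave 5.56% and 59.3%. The outermost start site alone gave 1.25% of genes with a *Hells* CTRL peak. With 10 words, 50 words and a reach of 250 bp, the share of *Hells* CTRL peaks with a word was 27.0%, 47.1% and 53.4%. A window of 500 bp on each side gave a mean CpG count of 10.7 and 54.2. Thresholds of 2 and -2 left 4 common peaks stronger in *Hells* cKO and 7 similar. Alternatives added after the data were seen gave, for *Hells* cKO, a density ratio of 0.896 without chromosomes 3, 17 and 18, and 42.4% of CpG-rich genes and 30.7% of genes outside the receptor and keratin families with a peak. Without chromosomes 4, 9 and 13 the *Hells* cKO density ratio was 0.647, its strength ratio 0.677 and its share of genes 24.5%, and the *Hells* CTRL shares were 3.18% for partners and 1.29% for genes. Leaving out each autosome in turn kept the *Hells* cKO density ratio between 0.690 and 0.798 and that of *Hells* CTRL between 0.913 and 0.972. Of 344 values computed under alternatives, 299 lay within the interval of the reported value or, for counts, within 1.5 times of it. The number of peaks per window limits the precision, and causes of the differences were not tested.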
